A study of Mus musculus with 11 samples.

Results

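The peaks described here are the H3K4me3 peaks of wild-type (WT) cells that lie where the spans of neighbouring protein-coding genes end close together. A peak was a member if it lay within 1000 bases of an end of the mm10 span of each of 2 or more protein-coding genes, a rule that used position and no measured height. The rule chose 1544 of the 9836 WT peaks on chromosomes 1 to 19, X and Y (15.7%, Wilson 95% interval 15.0 to 16.4). Another 6018 peaks lay at an end of 1 gene, and 2274 lay at no gene end.

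The peaks came from CUT&RUN, in which an antibody on chromatin guides a nuclease that releases the bound DNA for sequencing. The cells were mouse day 2 embryoid bodies, aggregates grown by the SFEBq method from embryonic stem cells with GFP knocked in at Rx. In all groups doxycycline was taken away at day 0, 5% KSR (a serum replacement) was used and 2% matrigel was given at day 1. H3K4me3 was profiled with 1 library each in the Wdr5 knockout (KO), in the Wdr5 and p53 double knockout (DKO) and in WT, and WDR5 and P53 were profiled with 2 lists each in DKO and WT. The labels used here do not say which gene doxycycline controlled, nor how many clones stood behind a genotype. Of 8 pluripotent and epiblast marker genes, 3 had an H3K4me3 peak in KO, 8 in DKO and 8 in WT, and of 5 neural markers none had one in any genotype. Of 5 markers of other germ layers and of 4 of fibroblast feeders, 1 each had a peak in WT, Eomes and Thy1, and none in KO or DKO. A promoter peak does not show whether a gene was deleted, so the labels were not checked at Wdr5 and p53 themselves. The WDR5 lists held 226 and 166 peaks in DKO, against 725 and 450 in WT.

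Promoters of neighbouring genes that point away from each other are called bidirectional or divergent promoters. In mammals they are often rich in CpG, and many belong to housekeeping genes such as those for DNA repair and mitochondrial proteins. H3K4me3 is laid down at active promoters by the SET1 and MLL methyltransferase complexes, in which WDR5 is a core subunit, and it typically flanks the nucleosome-depleted stretch where transcription starts. P53 is a transcription factor that binds mainly at its own response elements.

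The H3K4me3 libraries held 22.3 M fragments in KO, 43.2 M in DKO and 34.2 M in WT, and gave 918, 6418 and 9836 peaks in that order. The WDR5 and P53 lists rested on 23.9 M to 57.5 M fragments. Lists 1 and 2 mostly repeated each other in 3 of the 4 groups: 75.3% of the list 2 summits in DKO WDR5, 77.3% in WT WDR5 and 80.3% in WT P53 coincided to the base with list 1, against 10.6% in DKO P53. Such lists were counted as 1 library, and whether the DKO P53 lists are separate libraries was not established. No comparison between genotypes therefore had established replicates on both sides, no such test was run, and intervals cover counting error only. Fold enrichment is the authors' value for a peak, the pileup at its summit over the local background of the same library. It was not scaled between libraries.

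Sequence is shown for 7 gene pairs that the results below turn on: 3 whose peak had WDR5 in WT and not in DKO, 2 with high peaks in KO, 1 pair of mitochondrial ribosomal protein genes, and 1 classical divergent pair. Each window is read 5′ to 3′ on the plus strand and is the RefSeq promoter of the gene there, from 250 bases before its start to 50 after, in GRCm38.p6, the assembly of mm10. Capitals mark the bases between the starts of the 2 gene spans, so that the lower-case letters before them belong to the gene on the minus strand and those after them to the gene on the plus strand.

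Map3k10 and Zfp607b, chr7:27674411-27674710: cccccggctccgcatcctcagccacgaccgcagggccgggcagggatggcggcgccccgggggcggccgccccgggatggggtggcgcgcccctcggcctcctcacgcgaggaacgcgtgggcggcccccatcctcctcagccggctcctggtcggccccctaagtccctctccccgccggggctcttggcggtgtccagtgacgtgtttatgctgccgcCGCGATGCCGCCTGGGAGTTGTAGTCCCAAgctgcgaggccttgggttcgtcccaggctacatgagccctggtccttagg
Rps18 and Vps52, chr17:33955550-33955849: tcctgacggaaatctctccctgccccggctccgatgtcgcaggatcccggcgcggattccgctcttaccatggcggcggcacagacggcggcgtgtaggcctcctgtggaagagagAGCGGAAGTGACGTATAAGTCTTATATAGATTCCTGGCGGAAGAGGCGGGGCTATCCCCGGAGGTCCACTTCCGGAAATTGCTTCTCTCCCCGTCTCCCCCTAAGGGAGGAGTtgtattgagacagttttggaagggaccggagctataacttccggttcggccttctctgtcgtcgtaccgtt
Vezt and Fgd6, chr10:94035751-94036050: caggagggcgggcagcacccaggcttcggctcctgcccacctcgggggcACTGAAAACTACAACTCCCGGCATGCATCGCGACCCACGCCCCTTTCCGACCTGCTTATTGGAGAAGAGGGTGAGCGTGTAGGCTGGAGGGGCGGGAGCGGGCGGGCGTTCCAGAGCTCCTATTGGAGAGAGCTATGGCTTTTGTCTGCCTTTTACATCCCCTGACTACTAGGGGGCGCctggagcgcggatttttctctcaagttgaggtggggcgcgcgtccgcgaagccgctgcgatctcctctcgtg
Rpl9 and Lias, chr5:65391247-65391546: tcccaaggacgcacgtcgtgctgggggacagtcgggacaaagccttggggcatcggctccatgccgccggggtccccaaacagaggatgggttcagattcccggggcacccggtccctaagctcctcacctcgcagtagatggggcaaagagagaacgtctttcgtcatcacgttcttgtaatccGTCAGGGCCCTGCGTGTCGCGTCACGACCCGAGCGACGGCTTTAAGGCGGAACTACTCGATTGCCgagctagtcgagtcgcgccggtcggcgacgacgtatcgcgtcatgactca
Polr2l and Tspan4, chr7:141474986-141475285: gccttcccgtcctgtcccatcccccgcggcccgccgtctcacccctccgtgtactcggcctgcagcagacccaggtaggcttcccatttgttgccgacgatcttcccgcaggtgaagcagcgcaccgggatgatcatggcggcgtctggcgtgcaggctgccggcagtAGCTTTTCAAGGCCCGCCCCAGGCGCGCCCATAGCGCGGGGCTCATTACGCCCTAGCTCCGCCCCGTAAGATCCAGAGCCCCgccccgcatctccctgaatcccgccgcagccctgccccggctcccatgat
Mrpl46 and Mrps11, chr7:78782881-78783180: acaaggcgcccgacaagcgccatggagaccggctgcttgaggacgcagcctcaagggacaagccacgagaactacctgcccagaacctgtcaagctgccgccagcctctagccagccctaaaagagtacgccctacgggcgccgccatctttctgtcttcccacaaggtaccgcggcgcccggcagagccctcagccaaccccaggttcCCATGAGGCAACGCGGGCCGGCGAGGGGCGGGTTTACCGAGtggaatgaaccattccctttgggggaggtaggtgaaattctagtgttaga
Atm and Npat, chr9:53536797-53537096: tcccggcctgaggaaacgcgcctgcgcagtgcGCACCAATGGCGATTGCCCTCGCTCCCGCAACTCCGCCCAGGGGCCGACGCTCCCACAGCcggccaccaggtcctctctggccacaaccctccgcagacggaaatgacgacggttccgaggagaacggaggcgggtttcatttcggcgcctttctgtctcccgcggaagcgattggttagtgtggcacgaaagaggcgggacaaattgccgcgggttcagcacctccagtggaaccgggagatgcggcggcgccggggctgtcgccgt

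The stretch between the starts was short in all 7. It held 30 bases at Map3k10 and Zfp607b, 41 at Mrpl46 and Mrps11, 60 at Atm and Npat, 65 at Rpl9 and Lias, 82 at Polr2l and Tspan4, 113 at Rps18 and Vps52 and 179 at Vezt and Fgd6. The windows of these pairs were 58.7% to 73.3% G and C, with 21 to 35 CpG each.

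Most members were divergent promoters. The strand of both genes was known for 1157 members at 2 genes, and in 925 of them (79.9%) the starts of genes on opposite strands lay together. In 205 members the start of a gene lay near the finish of its neighbour, in 21 the starts of genes on the same strand lay together, and in 6 a finish lay near a finish. Orientation was not available for 351 members, since the reference gave a strand for 79.9% of genes and for none on chromosome 18, and 36 members lay at 3 or more genes. The members covered 2466 genes in 1254 gene sets, of which 970 had 1 peak, 278 had 2 and 6 had 3.

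In 617 of the 925 divergent members the gene spans were separate, with a median of 99 bases between the starts (quartiles 49 and 216). In the other 308 the spans overlapped. The peak itself covered both starts in 120 of the 617 (19.4%). At Smpd2 and Ppil6, Capza1 and St7l, Ears2 and Ubfd1, Tcta and Rhoa, and Klhl18 and Kif9, no base lay between the spans. The WT fold enrichment at these 5 was 3.31, 5.69, 3.38, 3.94 and 5.98.

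The reverse count started from the genome. Of 3540 pairs of protein-coding genes with ends at most 1000 bases apart, 131 (3.70%) had a KO peak within 1000 bases of both ends, 902 (25.5%) a DKO peak and 1242 (35.1%) a WT peak. Of 896 divergent pairs, 88 (9.82%) had one in KO, 563 (62.8%) in DKO and 710 (79.2%, 76.5 to 81.8) in WT. Of 548 pairs with a start by a finish, the numbers were 11 (2.01%), 103 (18.8%) and 187 (34.1%) in KO, DKO and WT. Of 770 pairs with a finish by a finish, they were 1 (0.130%), 12 (1.56%) and 17 (2.21%). In each genotype, then, peaks were far more frequent where starts met than where finishes met.

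**Figure D1:**
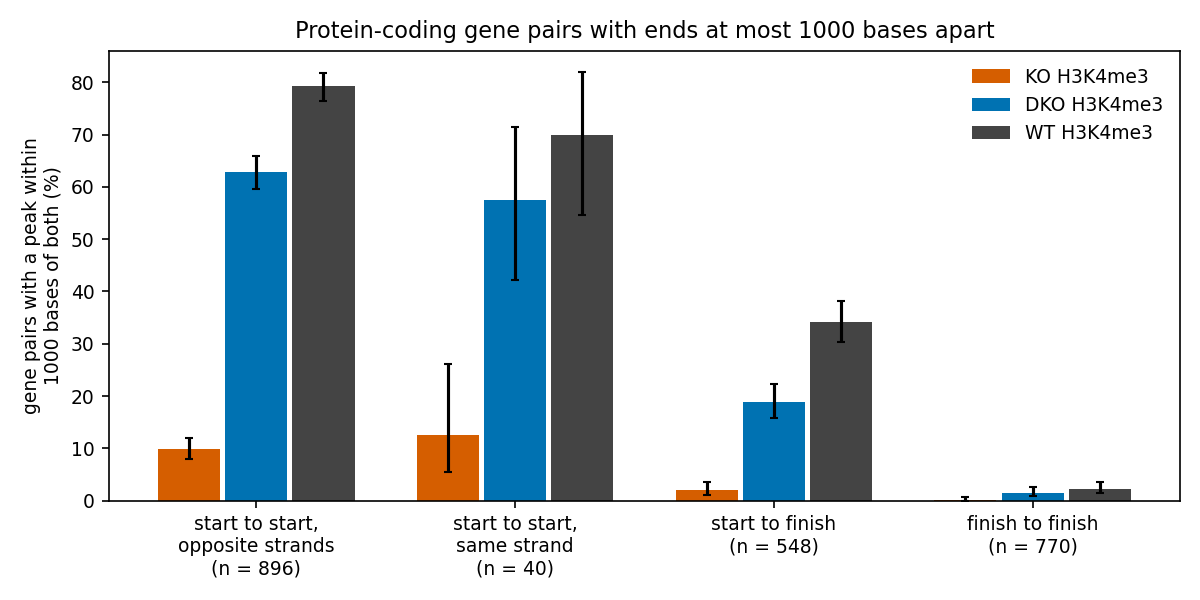
Share of gene pairs with ends at most 1000 bases apart that had an H3K4me3 peak at both ends, by the orientation of the genes, in KO, DKO and WT. Bars are percentages of pairs and whiskers are Wilson 95% intervals. Divergent pairs reached 9.82% in KO, 62.8% in DKO and 79.2% in WT, and pairs with facing finishes stayed at or below 2.21% in all 3.

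The members were slightly higher and wider than other WT peaks. Their median fold enrichment was 4.60 (quartiles 3.95 and 5.46), against 4.50 at 1 gene end, 4.07 at no gene end and 4.42 over all WT peaks. Median width was 582 bases, against 545 at 1 gene end, 415 at no gene end and 520 over all. The rule measured distance from the edges of a peak, so a wider peak reaches a second gene end more easily. The width comparison is thus partly set by the rule. With distance taken from the summit, the median width of the members was 571 bases. Divergent members stood at 4.70 and 609 bases, members with a start by a finish at 4.48-fold. The widest, at Nhlrc3 and Proser1, spanned 2488 bases, followed by Zwilch and Rpl4 with 2151, Zfp668 and Zfp646 with 2105, Sf3b3 and Cog4 with 1914, and Vps35 and Orc6 with 1910. These 5 were all called in KO and in DKO as well.

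The highest WT member, on chromosome 9 at 66350497 to 66351306, lay by Herc1, a giant ubiquitin ligase, and the predicted gene Gm30447, with 5.07 in KO, 5.31 in DKO and 9.97 in WT. The peak of Dclre1b, a telomere nuclease, and Ap4b1, an adaptor complex subunit, had no call in KO, 4.70 in DKO and 9.37 in WT. That of Rgl1 and Arpc5, an Arp2/3 complex subunit, had no call in KO, 5.43 in DKO and 9.25 in WT. Among these 3, the peak at Herc1 was the one with a KO call.

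Further down, the peak at Ndufa4, a cytochrome oxidase subunit, and Phf14 had 6.88 in KO, 5.87 in DKO and 8.51 in WT. At Sharpin, a subunit of a ubiquitin ligase, and Maf1, a repressor of RNA polymerase III, the values were 5.66 in DKO and 8.73 in WT. At Nop14, a ribosome assembly factor, and Grk4 they were 4.15 in DKO and 8.47 in WT. Neither of the last 2 was called in KO. Ddx49 and Cope had 6.89 in DKO and 8.35 in WT, again with no KO call.

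H3K4me3 summits lay beside the starts and seldom in the short stretch between them. In the 617 divergent members with separate spans, 21 WT summits (3.40%) fell between the starts, 299 in the gene on the minus strand and 297 in the gene on the plus strand. In the 69 of these called in KO, 3 KO summits (4.35%) lay between the starts, and in the 422 called in DKO, 9 DKO summits (2.13%) did. The median distance from the midpoint of the starts to the summit was 403.5 bases in KO, 463 in DKO and 400.5 in WT. The KO and DKO peaks counted are those that overlap the WT peak, which limits how far their summits can lie from it. The summit lay on the same side of the midpoint as the WT summit in 64 of 69 KO peaks (92.8%) and in 386 of 422 DKO peaks (91.5%). The median shift from the WT summit was 93 bases in KO and 104.5 in DKO.

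**Figure D2:**
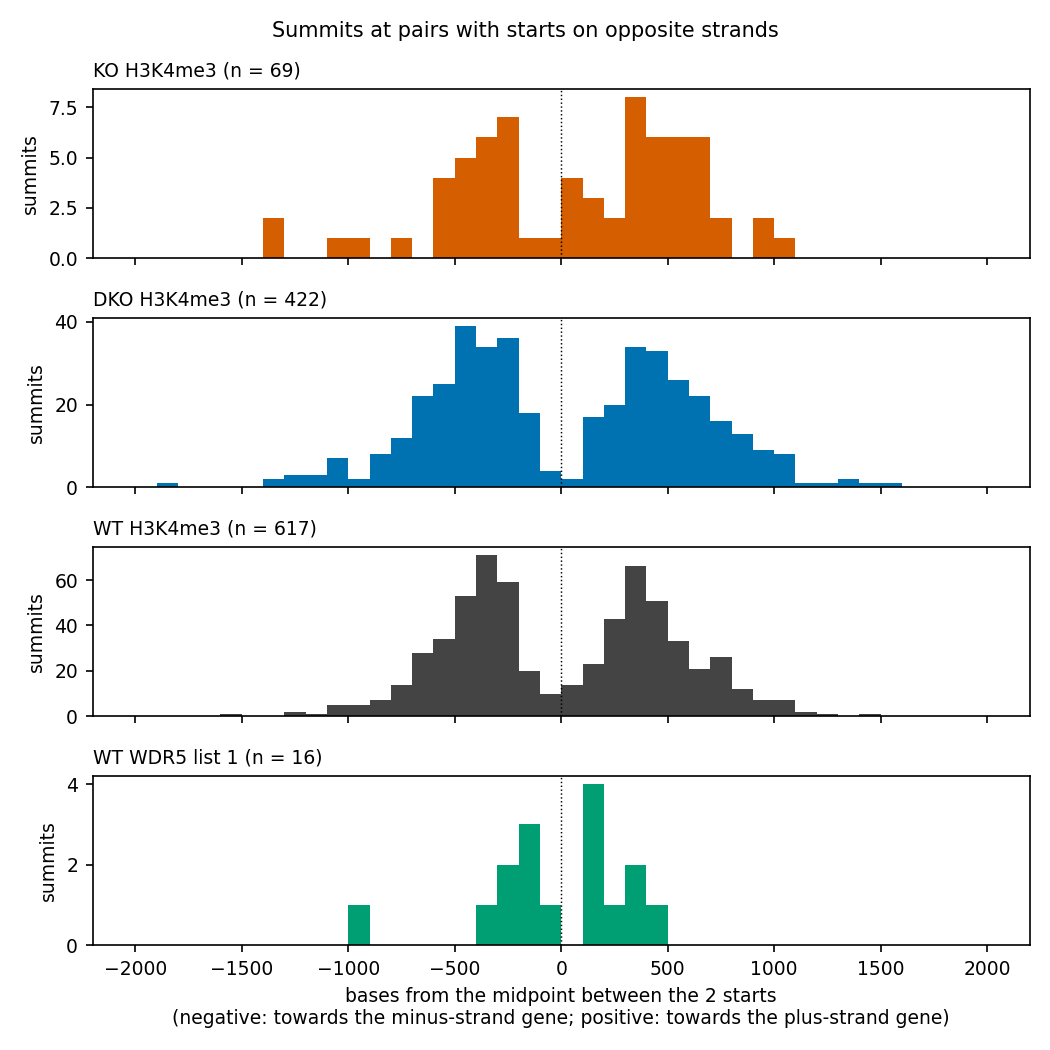
Position of H3K4me3 summits around the midpoint of the starts of divergent genes with separate spans, in KO (69 peaks), DKO (422) and WT (617), with the WDR5 summits of WT list 1 at 16 members in the lowest panel. The horizontal axis is the distance in bases from the midpoint, negative towards the gene on the minus strand, and the vertical axis is the number of peaks. In each H3K4me3 library the summits form a hump on either side, with few in the middle, and the median distances are 403.5, 463 and 400.5 bases.

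Where a divergent pair with separate spans carried 2 WT peaks, these mostly sat 1 on each side. This held for 137 of 148 such pairs, with a median of 860 bases between the summits (quartiles 698.5 and 1108). The higher of the 2 had a median of 1.26 times the fold enrichment of the lower. In KO, neither was called in 120 pairs, only the higher in WT in 17, only the lower in 11, and both in 0, which allows a share of up to 2.03%. In DKO, neither was called in 23 pairs, only the higher in 55, only the lower in 11, and both in 59. Over all members the share called was 9.07% in KO and 62.6% in DKO, and over all WT peaks 8.08% and 49.2%. At the KO share few pairs with both called would be counted. Where 1 DKO peak overlapped both members, as at Dclre1b and Ap4b1, it counted for each. Divergent pairs with overlapping spans were not in this count.

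The Rpl9 and Lias window shown above is such a case. Rpl9 encodes a protein of the large ribosomal subunit, and Lias makes lipoic acid in mitochondria. The peak on the Rpl9 side, on chromosome 5 at 65390509 to 65391364, had 7.50 in KO, 4.53 in DKO and 4.92 in WT. The peak on the Lias side, 544 bases away between summits, was called in WT at 6.27 and in neither KO nor DKO. Atm, the DNA damage kinase, and Npat, an activator of histone genes, had a peak on each side with summits 834 bases apart. The peak on the Npat side had 4.83 in KO, 4.19 in DKO and 4.32 in WT, and the peak on the Atm side had no KO call, 4.89 in DKO and 4.60 in WT.

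Every member is a WT peak by the rule, and DKO had a call at many more of them than KO. KO peaks overlapped 140 of the 1544 members (9.07%, 7.73 to 10.6), where 8.08% of all WT peaks were overlapped, 436 of 6018 peaks at 1 gene end (7.24%, 6.62 to 7.93) and 219 of 2274 at no gene end (9.63%, 8.49 to 10.9). DKO peaks overlapped 967 members (62.6%, 60.2 to 65.0), where 49.2% of all WT peaks were overlapped, 2979 peaks at 1 gene end (49.5%, 48.2 to 50.8) and 891 at no gene end (39.2%, 37.2 to 41.2). Neither mutant had a call at 572 members (37.0%), against 49.8% of all WT peaks. The KO share of the members was thus near that of all peaks, and the DKO share was above it by more than counting error. The KO library was the shallowest and the DKO library the deepest of the 3, and the part of depth in these shares was not tested.

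Peaks called in each mutant were also classified by the same rule on their own. Paired ends held 131 of 918 KO peaks (14.3%, 12.2 to 16.7), 1093 of 6418 DKO peaks (17.0%, 16.1 to 18.0) and 1544 of 9836 WT peaks (15.7%, 15.0 to 16.4). Divergent members had 92 of 925 called in KO (9.95%) and 619 in DKO (66.9%, 63.8 to 69.9). Members with a start by a finish had 14 of 205 in KO (6.83%) and 103 in DKO (50.2%, 43.5 to 57.0), so that the DKO intervals stood apart and the KO intervals overlapped. That DKO share was close to the 50.4% of peaks at the start of a single gene, 2409 of 4780.

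**Figure D3:**
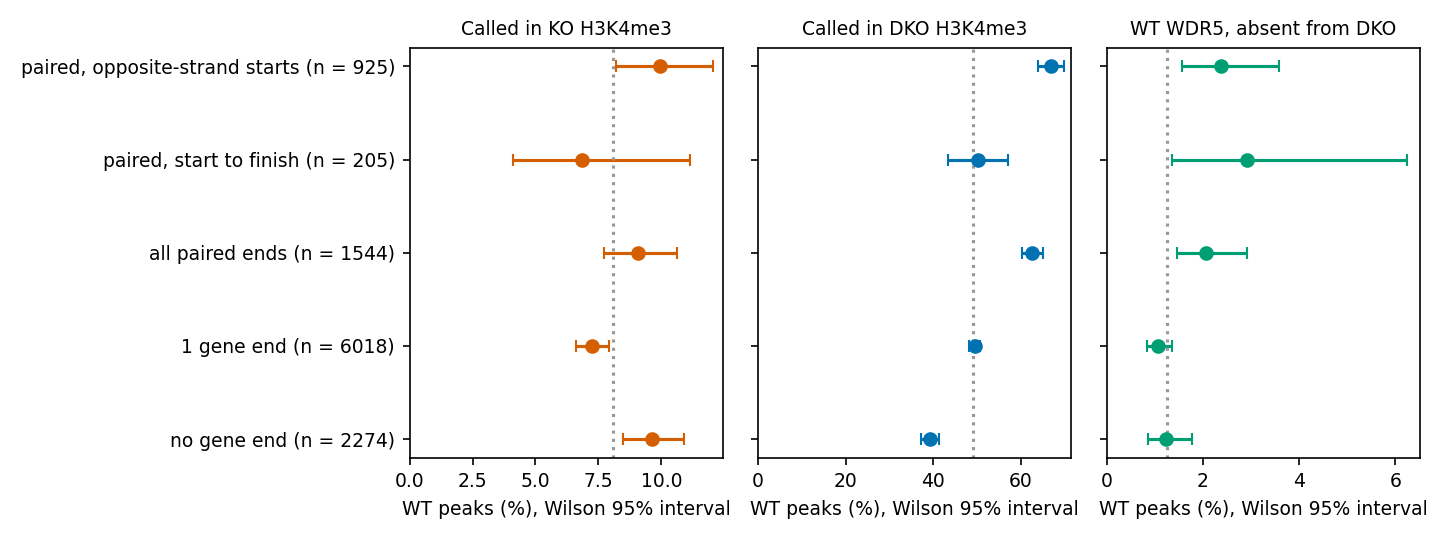
Share of WT H3K4me3 peaks overlapped by a KO peak, by a DKO peak, or by a WDR5 region of both WT lists that was absent from DKO, by the gene ends near the peak. Points are percentages, bars are Wilson 95% intervals for counting error, and the dotted line is the share of all 9836 WT peaks. In DKO the members (62.6%) and the divergent members (66.9%) lie right of the line at 49.2%, while in KO the interval of all members (7.73 to 10.6%) spans the line at 8.08%.

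Since the members were a little higher in WT, the shares were also compared within 10 bins of WT fold enrichment. In DKO the share of members exceeded that of peaks at 1 gene end in 10 of 10 bins, from 31.8% against 22.1% in the lowest bin to 91.5% against 84.6% in the highest. The difference, 13.1 percentage points without bins (10.4 to 15.8), was 11.4 with bins of fold enrichment and 9.99 with bins of width. In KO it was 1.82 points (0.325 to 3.48) without bins, 1.27 and 0.554 with them, and 1.12 with a window of 2000 bases, where its interval included 0 (-0.203 to 2.57). Among the higher 50% of WT peaks, with the mutant lists whole, the difference was 2.26 points in KO (-0.149 to 4.92) and 9.77 in DKO (6.40 to 13.0). With each list cut to its own higher 50%, it was 0.138 points in KO (-1.50 to 2.07) and 5.92 in DKO (2.20 to 9.64).

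**Figure D4:**
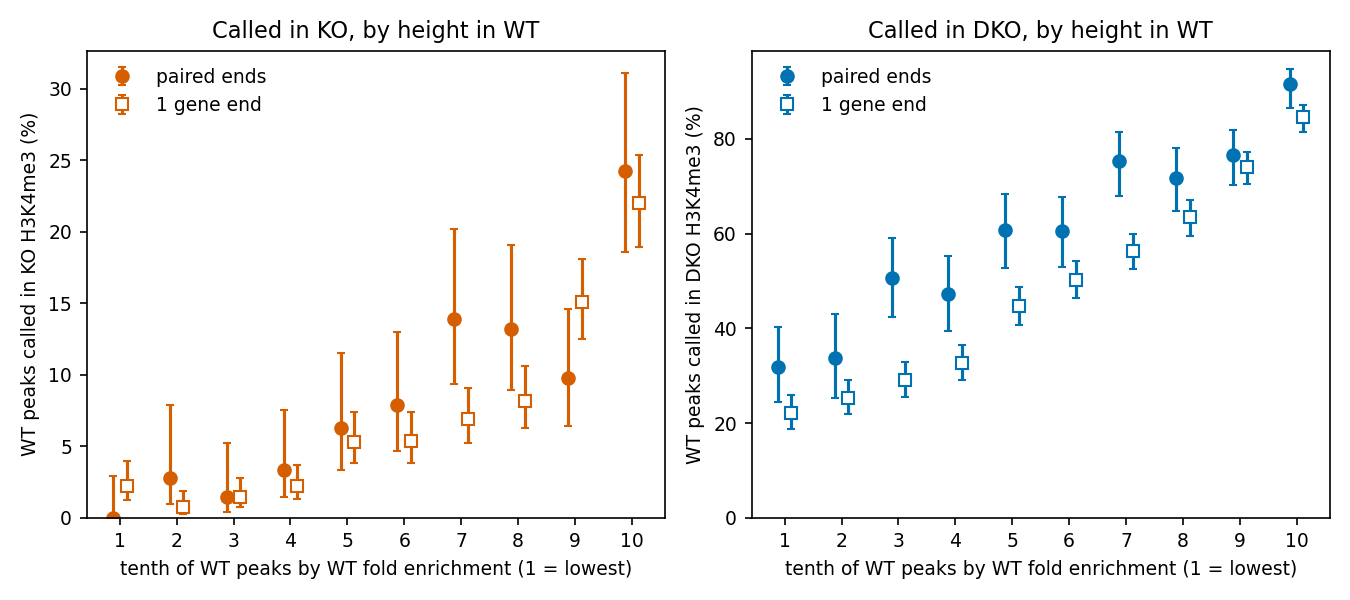
Share of WT peaks called in KO and in DKO, by bin of WT fold enrichment from lowest to highest, for members and for peaks at 1 gene end. The vertical axis is the percentage called, and bars are Wilson 95% intervals. In DKO the members lie above in all 10 bins, in KO in 8 of 10.

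The distance between the starts went with the DKO share by little. It was 70.8% of 312 divergent members with at most 100 bases between the starts, 69.0% of 142 with up to 200, 64.5% of 121 with up to 400 and 59.0% of 39 with up to 1000. The KO shares were 9.29%, 11.3%, 14.9% and 15.4% in the same order. The intervals of neighbouring bins overlapped in both.

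Called members had been higher and wider in WT. Members called in KO had a WT median of 5.26-fold and 965.5 bases, against 4.51-fold and 552 bases for those not called. Members called in DKO had 4.94-fold and 714 bases, against 4.13-fold and 408 bases. In KO all 140 peaks were narrower than in WT, where 89.1% of all called WT peaks were, with 423 of 436 at 1 gene end (97.0%) and 145 of 219 at no gene end (66.2%). In DKO 703 of 967 were narrower (72.7%), where 71.2% of all called WT peaks were. The median width of the called members was 371 bases in KO and 502 in DKO.

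The highest KO member lay within Hnrnpc, which binds nascent RNA, close to the start of Rpgrip1, a protein of the photoreceptor cilium, with 7.67 in KO, 4.70 in DKO and 6.34 in WT. Rpl9 and Lias followed. Polr2l, a small subunit shared by the RNA polymerases, and Tspan4, a tetraspanin, had 7.42 in KO, 5.57 in DKO and 6.72 in WT over 1425 bases of chromosome 7, from 141474548 to 141475972. Ubox5 and Fastkd5, a mitochondrial RNA factor, had 7.10, 5.15 and 8.28 in KO, DKO and WT. In that order, Zcchc17 and Snrnp40, a splicing factor, had 6.52, 5.48 and 6.41, B3galt6 and Sdf4 6.28, 5.09 and 7.37, and the peak at Tmprss9, Timm13 and Lmnb2, the gene of lamin B2, 6.40, 6.29 and 8.33.

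Members called in DKO and not in KO were led by Hscb, an iron-sulfur cluster chaperone, and Chek2, a checkpoint kinase, with 7.18 in DKO and 4.34 in WT. That DKO peak also overlapped a second, higher member of the pair, which had 4.11 in KO and 8.32 in WT. Cdca8, a subunit of the chromosomal passenger complex, and its neighbour 9930104L06Rik had 6.86 in DKO and 8.23 in WT. Of the 967 members called in DKO, 177 (18.3%) had a higher value in DKO than in WT, near the 20.9% of all WT peaks called in DKO. Here 1 DKO peak can stand for 2 members as at Hscb and Chek2. Cdc40 and Wasf1 had 6.45 in DKO and 7.40 in WT, and Mtmr11 and Sf3b4, a splicing factor, 6.43 in DKO and 6.32 in WT.

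Some high WT members were called in neither mutant. The peak of Nadsyn1, which makes NAD, and Dhcr7, an enzyme of cholesterol synthesis, reached 8.26 in WT. That of Chchd4, which imports proteins into mitochondria, and Tmem43 reached 7.39, that of 1700020L24Rik and the protease gene Mmp28 6.75, that of Gla and Hnrnph2 6.67, and that of Mmp25 and Bicdl2 6.52. Of these pairs, Chchd4 and Tmem43 had a second member that was called throughout, with 4.59 in KO, 4.34 in DKO and 4.90 in WT, and Gla and Hnrnph2 had one with 3.68 in DKO and 4.57 in WT. An uncalled peak can still hold signal below the threshold of the caller.

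Calls in KO that were missing from DKO were rare among members. There were 5 among the 1544 members, where 0.976% of all WT peaks were of this kind. They made up 5 of the 140 called in KO (3.57%, 1.53 to 8.09), where 12.1% of all WT peaks called in KO were missing from DKO, with 38 of 436 at 1 gene end (8.72%, 6.42 to 11.7) and 53 of 219 at no gene end (24.2%, 19 to 30.3). The 5 lay at Apaf1, the core of the apoptosome, and Ikbip (5.07 in KO, 6.88 in WT), Polk and Cert1 (4.02 and 4.89), Mrpl40 and the histone chaperone gene Hira (4.52 and 5.17), Atp6v1a and Naa50 (4.70 and 4.07), and Cep44 and Fbxo8 (4.32 and 5.58). At the second member of Polk and Cert1 and of Atp6v1a and Naa50, DKO did have a call, of 4.47 and 4.22, against 5.24 and 4.1 in WT. The 5 were named after their values were seen.

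WDR5 was found at few members. The 2 DKO lists overlapped 28 (1.81%) and 19 (1.23%) members, and the 2 WT lists 75 (4.86%) and 47 (3.04%). Of peaks at 1 gene end, the DKO lists overlapped 0.814% and 0.532%, and the WT lists 2.56% and 1.46%. At no gene end the shares were 3.39% and 3.17% in DKO, and 4.66% and 3.61% in WT. Members thus exceeded peaks at 1 gene end in the DKO lists too, and the source of that excess was not tested. A region found in both WT lists overlapped 47 members (3.04%), where 2.23% of all WT peaks had one. Such a region overlapped 91 of 6018 peaks at 1 gene end (1.51%) and 81 of 2274 at no gene end (3.56%). At 32 members (2.07%, 1.47 to 2.91) the region was absent from DKO, where 1.26% of all WT peaks had such a region. The share with a region absent from DKO was 64 of 6018 at 1 gene end (1.06%, 0.834 to 1.36) and 28 of 2274 at no gene end (1.23%). The 32 members made up 25.8% of the 124 WT peaks of this kind. Without list 2 of WT WDR5 the share of members was 3.69%.

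The difference of 1.01 percentage points between members and peaks at 1 gene end (0.341 to 1.88) was 0.993 with bins of WT fold enrichment. Among the higher 50% of WT peaks it was 1.05 (0.140 to 2.31), and with every list, WDR5 included, cut to its own higher 50% it was 0.166 (-0.491 to 1.15). Of the 32 members 22 were divergent and 6 had a start by a finish. H3K4me3 was called at 4 of the 32 in KO and at 21 in DKO (65.6%), near the 62.6% of all members.

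The strongest WDR5 region absent from DKO lay at Map3k10, a kinase of the JNK pathway, and the zinc finger gene Zfp607b. It had 9.08 and 8.23 in the WT lists, and the H3K4me3 peak there, on chromosome 7 from 27674230 to 27674968, had no KO call, 6.56 in DKO and 7.95 in WT. Pradc1 and Cct7, a subunit of the chaperonin that folds actin and tubulin, had WDR5 at 8.24 and 7.01, with H3K4me3 at 4.80 in DKO and 6.10 in WT. Cep170, a centrosomal protein, and Sdccag8 had WDR5 at 7.14 and 5.95, with H3K4me3 at 4.46 in DKO and 6.04 in WT. None of these 3 had a KO call.

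Ribosomal protein genes appeared among the strongest. Rps18, of the small subunit, and Vps52 had WDR5 at 6.18 and 5.98, with H3K4me3 at 4.0 in DKO and 3.91 in WT. Rpl37, of the large subunit, and Card6 had WDR5 at 6.11 and 5.92, with H3K4me3 at 3.54 in DKO and 4.50 in WT. Neither H3K4me3 peak was called in KO. Chd1l, a chromatin remodeller, and Fmo5 had WDR5 at 6.87 and 6.54 and H3K4me3 at 3.98 in WT alone.

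The rest differed in where H3K4me3 was called. Nlgn2, a postsynaptic adhesion protein, and Tmem256 (WDR5 6.31 and 6.17), Vezt and Fgd6 (5.22 and 5.35) and Ctns and Shpk (5.24 and 5.15) had WDR5 at an H3K4me3 peak called in WT alone, at 5.99, 5.80 and 5.19. A second member at Nlgn2 and Tmem256 had H3K4me3 at 3.53 in DKO and 4.40 in WT. Esrra, a nuclear receptor, with Catsperz (5.90 and 5.86), and Rita1 with the helicase gene Ddx54 (5.64 and 5.03) had an H3K4me3 call in DKO, at 4.24 and 5.40, and in WT, at 5.58 and 6.09. Sf3b3, a splicing factor, and Cog4 (5.12 and 5.26) had one in all 3, at 4.30 in KO, 4.40 in DKO and 4.56 in WT. A second member at Rita1 and Ddx54 had WDR5 in both DKO lists, at 4.95 and 4.85, and in neither WT list.

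**Figure D5:**
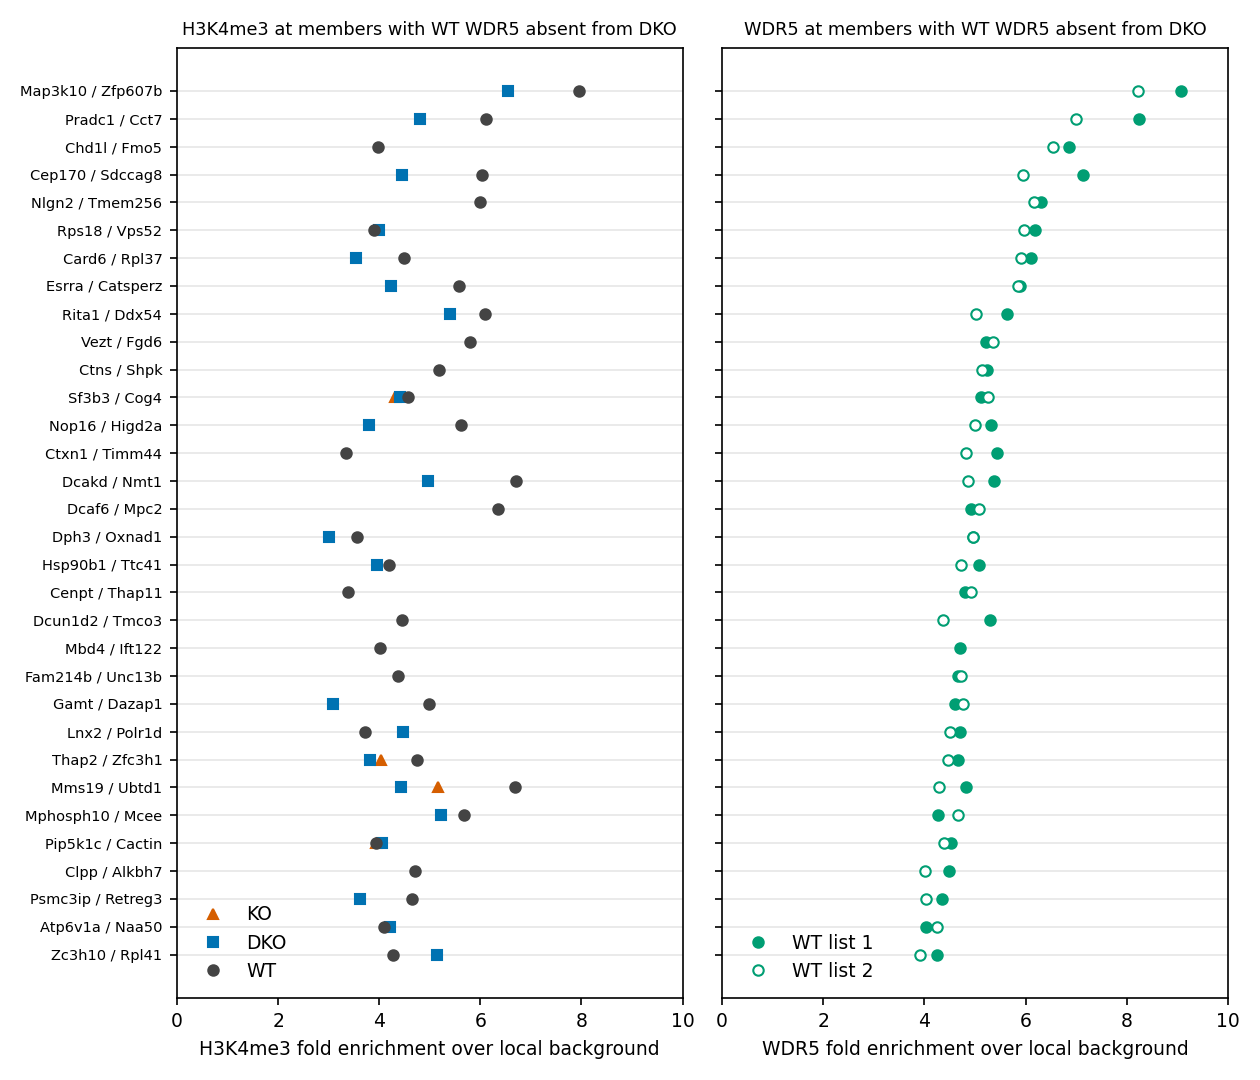
Fold enrichment at the 32 members with a WDR5 region absent from DKO, with H3K4me3 in KO, DKO and WT on the left and WDR5 in the 2 WT lists on the right. The horizontal axes are the authors' fold enrichment within each list, rows run from the highest WDR5 down, and a missing point means no call at the peak. H3K4me3 has 4 points in KO, 21 in DKO and 32 in WT.

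In 15 members the WDR5 region also met a DKO peak. WDR5 at Cryzl1 and Itsn1 had 7.05 and 6.39 in the DKO lists, against 8.59 and 8.13 in the WT lists. At 1 member of Usp5, a deubiquitinase, and Cdca3 it had 7.40 and 6.60 in DKO, against 5.97 and 5.96 in WT. At the other member of that pair it had 3.97 and 3.94 in DKO, against 4.67 and 4.07 in WT. At Ttc13 and Arv1 it had 5.18 and 4.91 in DKO, against 9.61 and 8.03 in WT. Since DKO cells lack Wdr5 by their label, a call there is a measured fact about the list, and its source was not tested.

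In a small set of members, WDR5 summits mostly lay closer to the middle of the promoter than H3K4me3 summits did. In 16 divergent members with separate spans and a region absent from DKO, the WDR5 summit of WT list 1 was a median of 188 bases from the midpoint of the starts, and the WT H3K4me3 summit 395.5 bases. The WDR5 summit was the nearer in 13 of the 16. The WDR5 peaks counted are those that overlap the H3K4me3 peak. Members whose WDR5 region also met a DKO peak were not in this count.

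No member had P53. The count was 0 of 1544 in each of the 2 DKO and 2 WT lists, which allows a share of up to 0.194%, where 0.732% of all WT peaks had a region in both WT lists and 0.132% had one absent from DKO. A P53 region of both WT lists was at 4 of 6018 peaks at 1 gene end (0.0665%), a share below that limit. Such a region was at 68 of 2274 peaks at no gene end (2.99%). Peaks at 1 gene end met 6 and 7 P53 peaks in the DKO lists, and 9 and 2 in the WT lists. Peaks at no gene end met 63 and 98 in DKO, and 76 and 68 in WT.

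The genes at members were counted by family. Of 7759 protein-coding genes with a WT peak at an end, 2466 (31.8%) were at a member. Of those 2466, 283 (11.5%) had a member called in KO, where 9.25% of all 7759 genes had a called peak, and 1719 (69.7%) had one called in DKO, where 58.6% did. Of the 2466, 64 (2.60%) had one with WDR5 absent from DKO, where 1.65% of the 7759 did. The lists below were chosen with earlier results of these data known, and no list was tested.

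DNA repair genes lay at members most often among the functional lists, 34 of 56 (60.7%, 47.6 to 72.4), with 3 called in KO and 26 in DKO. The peak of Palb2, which brings in recombination factors, and Dctn5 had 4.21 in DKO and 7.15 in WT. That of Xpc, which recognises DNA lesions, and Lsm3 had 4.41 in DKO and 6.92 in WT. Neither was called in KO. That of Ddb1, a subunit of a complex that recognises UV damage, and Tkfc was called in all 3, with 4.70 in KO, 4.73 in DKO and 6.27 in WT.

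Mitochondrial ribosomal protein genes followed, with 36 of 68 (52.9%, 41.2 to 64.3), 7 of them called in KO and 29 in DKO. Mrpl46 and Mrps11, shown above, pair 2 such genes and had no KO call, 5.72 in DKO and 7.90 in WT. Mrpl48 and Rab6a had 4.90 in DKO and 7.10 in WT. Hgs and Mrpl12 had 5.37 in KO, 5.98 in DKO and 7.46 in WT.

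Genes of oxidative phosphorylation had 26 of 61 (42.6%), with 5 called in KO and 21 in DKO, and Ndufs3, of complex I, with Kbtbd4 had 3.75 in DKO and 8.32 in WT. Chaperone genes had 16 of 36 (44.4%), with 6 called in KO and 14 in DKO. Among them, Cct6a with Psph had 5.98 in KO, 5.78 in DKO and 7.38 in WT, and Pfdn6 with Wdr46 5.98 in DKO and 8.24 in WT. Pfdn2 with Nit1 had 4.35 in DKO and 7.12 in WT. Proteasome genes had 7 of 32 (21.9%), with 1 called in KO and 5 in DKO, and Psma2 with Mrpl32 had 4.60 in KO, 4.97 in DKO and 6.42 in WT.

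Cytosolic ribosomal protein genes were at members less often than the average gene by count, 16 of 67 (23.9%, 15.3 to 35.3), an interval that includes 31.8%. Of these 16, 6 were called in KO and 16 in DKO, and 3 had WDR5 absent from DKO. Rpl35a with Iqcg had 5.24 in KO, 4.38 in DKO and 5.61 in WT. Replication and cell cycle genes had 18 of 63 (28.6%), with 5 called in KO and 17 in DKO, and Aurka, a mitotic kinase, with Cstf1 had 4.71 in DKO and 7.54 in WT.

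Known p53 target genes had 7 of 29 (24.1%), with 4 called in KO and 6 in DKO, and none with a P53 region. Gtse1, a p53-regulated gene of G2 phase, with Ttc38 had 3.81 in KO, 4.26 in DKO and 5.60 in WT. MLL and SET1 complex genes had 4 of 19 (21.1%), with 3 called in DKO. Clustered histone genes had 6 of 12 (50%), with none called in KO or DKO. Pluripotency genes had 0 of 23, which allows a share of up to 13.0%.

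Textbook divergent pairs were on the list because they are divergent, so their share, 22 of 25 genes (88%), is no finding. With 3 called in KO and 20 in DKO, their values were moderate. Hspd1 and Hspe1, the mitochondrial chaperonin and its lid, had 3.35 in DKO and 3.80 in WT. Ppat and Paics, of purine synthesis, had 4.01 in DKO and 5.16 in WT at the higher peak. Mcm4 and Prkdc had 3.87 in DKO and 4.76 in WT, Sirt3 and Psmd13 4.49 and 6.10, Fen1 and Tmem258 5.29 and 5.12, Arfip2 and Timm10b 3.80 and 5.00, and Wrn and Purg 2.73 and 4.70. Col4a1 and Col4a2, which encode chains of basement membrane collagen, had 3.05 in WT and no call in either mutant.

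Counting each gene set once, 140 of 1254 sets (11.2%) had a KO call, 861 (68.7%) a DKO call and 32 (2.55%) WDR5 absent from DKO. Sets with 2 peaks had more calls, 46 of 278 in KO (16.5%) and 235 in DKO (84.5%), than sets with 1 peak, 94 of 970 in KO (9.69%) and 621 in DKO (64.0%). A set with 2 peaks has more chances to be overlapped.

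Of 6 motifs searched, 1 was more frequent in promoter windows at members than in those at peaks of 1 gene by more than counting error. RefSeq windows, 300 bases around the start, were at hand for 2057 of the 2466 genes, and 1311 windows lay at a member, against 2153 at peaks of 1 gene and 21237 in all. Each motif was searched on both strands. CCGGAAG, the core of ETS factor sites, was in 32.8% of windows at members (30.3 to 35.4), 22.1% at peaks of 1 gene (20.4 to 23.9) and 11.6% of all, and in 13 of the 43 windows at members with WDR5 absent from DKO (30.2%). TATAAA was in 3.81% (2.90 to 4.99), 5.85% (4.94 to 6.92) and 12.6% in the same order. The Rps18 and Vps52 window shown above holds CCGGAAG, the Rpl9 and Lias window none of the 6.

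The other motifs differed little between members and peaks of 1 gene. CCAAT was in 37.9%, 38.1% and 38.2% of windows at members, at peaks of 1 gene and in all. GGGCGG was in 66.1%, 67.5% and 46.2%, CACGTG in 9.23%, 8.82% and 7.84%, and the NRF1 site in 2.90%, 2.42% and 1.33%. Median G and C content was 62.3%, 61.7% and 56.3%, with 24, 22 and 13 CpG. The windows of a divergent pair can overlap, so that a match can be counted for both genes.

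The limit of the rule was read from the peaks just inside and just outside it. The 59 members whose second gene end lay 902 to 1000 bases away had a median of 4.53-fold and 482 bases, with 6 called in KO, 37 in DKO (62.7%) and 2 with WDR5 absent from DKO. The 53 peaks with that end 1001 to 1100 bases away had 4.16-fold and 497 bases, with 1 called in KO, 24 in DKO (45.3%) and 1 with WDR5 absent from DKO. Both groups are small, and whether the shares change at the limit was not tested.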

How the data were processed

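H3K4me3, WDR5 and P53 peaks came from 11 CUT&RUN lists in 7 groups. Per the file headers, the authors called them from paired-end fragments at a q cutoff of 0.01, with no control library, in MACS 2.1.0.20150731 or 2.1.2. The submitters' processing notes name Bowtie2, SAMtools 1.5, bedtools, HOMER 4.10, MACS2 2.1.0 and mm10. The pileup is a coverage signal in fragments, per the file headers. Fold enrichment, a ratio to the local background, and the -log10 p and q values are the authors' deposited values.

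Peaks were classed by distance to gene spans from RefSeq (GRCm38.p6, 21883 protein-coding genes). Strand came from the RefSeq promoter table, and exons were not analysed here. Called means an overlap of at least 1 base. A WDR5 or P53 region is a merged interval that overlaps a peak of both WT lists, and it is absent from DKO where no peak of either DKO list overlaps it. Shares have Wilson 95% intervals, and 3 counts set the limit for a share of 0. No test was run between genotypes: an exact permutation test of 2 lists against 2 cannot go below p = 0.333 (two-sided), and the lists of a group share summits. The scripts were tested on simulated data. Python 3.11.15, pandas 2.3.3 and SciPy 1.17.1 were used.

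The members and the gene lists were chosen with earlier results of these data known. Members named in the text were the 8 highest in WT, in KO and in DKO without a KO call, the 12 highest in WDR5 absent from DKO, the 5 narrowest gaps, the 5 widest peaks, the 5 highest called in neither mutant, members at known divergent pairs, and the 3 highest of each gene list. Some members that this rule names are not reported here. The alternatives were other windows, summit position, gene sets, stricter peaks, other overlaps, standardisation and leaving out lists.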

Additional observations from a re-analysis of the deposited data

How the results depend on the processing

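Of 122 alternative values, 84 lay within the 95% counting interval of the value reported and 38 outside it. None of the 43 differences among the 122 had the opposite sign, and the shares and medians cannot change sign. The share of WT peaks at paired ends was 12% with a window of 500 bases and 19.99% with 2000, 13.8% by summit, 14.6% without predicted genes, 10.9% with separate spans alone and 17.9% among the higher 50% of WT peaks. The median fold enrichment was 4.73, 4.51 and 5.31 with 500 bases, with 2000 bases and among the higher 50% of WT peaks, and the median width 618, 559 and 716 bases. Where the WT H3K4me3 list alone was cut to its higher 50%, the share called was 13.8% in KO and 75.4% in DKO, and the difference from peaks at 1 gene end in DKO was 9.77 points. Where every list was cut to its higher 50%, which leaves fewer peaks to overlap, the share called was 6.03% in KO and 49.8% in DKO, with WDR5 1.82% and with WDR5 absent from DKO 1.14%. The differences from peaks at 1 gene end were then 0.138 points in KO, 5.92 in DKO and 0.166 in WDR5 absent from DKO. With calls within 500 bases counted, the shares were 11% in KO, 69.7% in DKO, 5.51% with WDR5 and 3.69% with WDR5 absent from DKO, and with each gene set counted once 11.2% in KO and 68.7% in DKO. The DKO share was 58.7% with 2000 bases and 59.2% with an overlap of 50%. The difference in DKO was 9.77 points with 2000 bases, 9.99 with bins of width and 16.1 by gene set. The difference in KO, 1.82 points, varied with the setting. It was 0.554 with bins of width, 1.12 with 2000 bases (-0.203 to 2.57), 3.27 with calls within 500 bases and 3.18 by gene set. With a WDR5 list left out, the share with WDR5 was 3.04% to 4.86%, that with WDR5 absent from DKO 2.07% to 3.69%, and its difference 1.01 to 1.65 points. The share with P53 was 0 in every alternative. The cause of the other moves was not tested. Counting each gene set once, setting members against peaks at the start of 1 gene, and cutting the WT list alone were chosen after seeing the data. No paired analysis was possible because the result comes from no test. Each genotype had 1 H3K4me3 library, so the shares have no replicate check, and the depth of a library limits which peaks were called.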
